A study of Mus musculus with 4 samples.

Results

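SOX3 peaks were described around 10 homeodomain genes that divide the neural tube along its dorsoventral axis, Pax3, Pax7, Pax6, Dbx1, Dbx2, Irx3, Irx5, Nkx2-2, Nkx6-1 and Nkx6-2. The genes were taken by name, 10 of the 22367 protein-coding genes of the GENCODE vM1 annotation on mm9, and every deposited peak that overlapped the gene body or the 100 kb to either side of it was counted. The chromatin came from neural progenitor (NP) cells, which were obtained from the mouse embryonic stem cell line R1 by monolayer culture for 4 days in the serum-free medium N2B27. ChIP-seq with a goat anti-SOX3 antibody was done on 3 biological replicates, which the authors compared with a no-antibody input. All replicates were untreated and of this 1 line, the cells were not sorted by progenitor domain, and the lists hold no measure of expression, so that whether these cells expressed the 10 genes was not tested.

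In the ventricular zone of the spinal cord and hindbrain, SHH from the floor plate and BMP and WNT signals from the roof plate set the expression of these transcription factors, and pairs of them repress each other at the boundaries between progenitor domains. Pax3 and Pax7 mark dorsal progenitors. Dbx1 and Dbx2 mark progenitors near the middle of the axis, while Pax6, Irx3 and Irx5 are expressed over broad domains that leave out the most ventral cells and were counted here as intermediate. Nkx2-2, Nkx6-1 and Nkx6-2 are expressed ventrally and need SHH. SOX3 and its SOXB1 relatives SOX1 and SOX2 are expressed in progenitors across the whole axis.

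A common site is a stretch of DNA that peaks of all 3 replicates cover. The score deposited for a peak is 10 times the negative log10 of its MACS p-value, and since it depends on a depth that the lists do not give, it is reported as its percentile, the percentage of the peaks in the same list that score no higher. The lists held 18816, 8096 and 40543 peaks in replicates 1, 2 and 3. Replicate 2 was thus the shortest list, and 8 of the 10 genes had a peak of it in their window. A site of equal rank in every list has a lower percentile in replicate 2, so that percentiles of different replicates are not directly comparable. Replicates 2 and 3 shared peak edges, since in the 10 windows 10 of their 25 overlapping pairs of peaks began at the same base, against 0 of 22 pairs of replicates 1 and 2 and 1 of 29 pairs of replicates 1 and 3. Whether the libraries of replicates 2 and 3 are fully independent was not tested, and a site counted in 3 replicates rests on that. With replicate 1 and either of them alone, the sites numbered 22 with replicate 2 and 29 with replicate 3.

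The sequences that carry the SOX3 sites described here are shown first, on the plus strand of mm9, for the common site of each gene whose lowest percentile over the replicates was the highest, cut to its central 300 bases where it was wider. Capitals mark exact matches, on either strand, to the SOX core (ACAAAA or ACAAAG or ACAATA or ACAATG), to the overlapping words that begin 1 base earlier and leave the last base open (AACAAA or AACAAT, called the A form, and GACAAA or GACAAT, called the G form), to the composite SOX/POU word, and to the GLI word GACCACCCA. The dorsal genes Pax3 and Pax7 gave the following sequences.
Pax3 site 3, chr1:78135987-78136286: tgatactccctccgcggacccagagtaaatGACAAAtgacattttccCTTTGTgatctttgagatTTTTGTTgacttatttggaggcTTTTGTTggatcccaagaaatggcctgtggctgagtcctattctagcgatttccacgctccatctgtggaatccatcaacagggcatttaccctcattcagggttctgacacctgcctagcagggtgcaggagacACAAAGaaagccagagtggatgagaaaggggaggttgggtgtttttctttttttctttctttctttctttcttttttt
Pax7 site 1, chr4:139359963-139360209: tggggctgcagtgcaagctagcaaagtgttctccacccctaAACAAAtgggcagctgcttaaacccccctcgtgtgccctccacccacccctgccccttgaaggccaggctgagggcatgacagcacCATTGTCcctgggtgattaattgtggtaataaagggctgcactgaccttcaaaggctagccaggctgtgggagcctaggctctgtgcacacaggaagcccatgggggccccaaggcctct

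The intermediate genes gave the following sequences, with the site in intron 2 of Dbx1 added, after its values were seen, because it lies inside the gene.
Pax6 site 2, chr2:105456600-105456899: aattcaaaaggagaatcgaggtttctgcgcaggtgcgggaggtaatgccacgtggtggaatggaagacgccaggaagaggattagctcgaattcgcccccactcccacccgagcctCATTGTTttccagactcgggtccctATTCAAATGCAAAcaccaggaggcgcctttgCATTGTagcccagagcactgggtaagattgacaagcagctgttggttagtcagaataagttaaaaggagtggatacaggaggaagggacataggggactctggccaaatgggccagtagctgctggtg
Dbx1 site 2, chr7:56955083-56955382: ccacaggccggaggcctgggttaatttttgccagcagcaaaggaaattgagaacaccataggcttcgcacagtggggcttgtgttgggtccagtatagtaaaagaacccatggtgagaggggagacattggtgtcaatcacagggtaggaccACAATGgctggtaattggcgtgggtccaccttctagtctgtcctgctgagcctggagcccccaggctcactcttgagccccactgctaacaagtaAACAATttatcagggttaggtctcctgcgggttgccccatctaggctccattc
Dbx1 site 1, chr7:56889745-56889913: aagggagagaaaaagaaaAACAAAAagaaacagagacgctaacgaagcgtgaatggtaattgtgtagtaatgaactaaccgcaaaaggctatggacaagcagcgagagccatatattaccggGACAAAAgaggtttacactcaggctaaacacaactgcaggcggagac
Irx3 site 2, chr8:94345533-94345832: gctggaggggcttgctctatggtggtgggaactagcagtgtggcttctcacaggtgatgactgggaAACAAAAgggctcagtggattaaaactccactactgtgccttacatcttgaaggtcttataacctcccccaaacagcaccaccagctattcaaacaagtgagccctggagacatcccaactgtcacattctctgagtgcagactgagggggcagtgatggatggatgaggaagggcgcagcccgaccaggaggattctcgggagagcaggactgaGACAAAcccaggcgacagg
Irx5 site 1, chr8:94821058-94821357: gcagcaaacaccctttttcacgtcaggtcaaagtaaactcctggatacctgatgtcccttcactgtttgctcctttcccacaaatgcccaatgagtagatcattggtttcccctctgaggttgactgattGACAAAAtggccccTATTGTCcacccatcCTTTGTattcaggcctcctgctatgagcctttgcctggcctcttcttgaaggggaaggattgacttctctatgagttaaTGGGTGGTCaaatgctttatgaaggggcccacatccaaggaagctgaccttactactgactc

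The ventral genes gave the following sequences, with the site inside Nkx2-2 added after its words were seen.
Nkx2-2 site 2, chr2:147118738-147119035: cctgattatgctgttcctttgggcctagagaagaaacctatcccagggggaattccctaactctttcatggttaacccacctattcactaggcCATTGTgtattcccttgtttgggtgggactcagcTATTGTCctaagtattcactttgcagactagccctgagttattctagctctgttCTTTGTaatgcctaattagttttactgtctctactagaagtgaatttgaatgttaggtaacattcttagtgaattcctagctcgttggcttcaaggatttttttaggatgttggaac
Nkx2-2 site 1, chr2:147013954-147014191: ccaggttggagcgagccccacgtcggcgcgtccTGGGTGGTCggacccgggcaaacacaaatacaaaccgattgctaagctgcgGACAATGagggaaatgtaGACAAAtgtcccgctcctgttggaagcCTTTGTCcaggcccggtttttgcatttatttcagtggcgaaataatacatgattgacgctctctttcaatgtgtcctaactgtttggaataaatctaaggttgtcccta
Nkx6-2 site 1, chr7:146714645-146714944: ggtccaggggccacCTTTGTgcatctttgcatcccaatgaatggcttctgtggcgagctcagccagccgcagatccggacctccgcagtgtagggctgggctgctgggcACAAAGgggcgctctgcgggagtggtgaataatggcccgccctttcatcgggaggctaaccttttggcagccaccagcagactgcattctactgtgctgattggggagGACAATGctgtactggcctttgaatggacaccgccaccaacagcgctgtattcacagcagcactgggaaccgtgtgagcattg

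Of the 10 genes, 8 had at least 1 common site in their window, and Dbx2 and Nkx6-1 had none. Among all protein-coding genes, 42.1% had one. The windows of the 10 genes held 22 common sites in all, with 4 each for Pax3, Pax6 and Irx3, 3 for Dbx1, 2 each for Pax7, Nkx2-2 and Nkx6-2, and 1 for Irx5. The median was 2 sites per window, against 0 over all genes. At least 3 sites were present in the windows of 7.45% of all genes and at least 4 in 3.63%. The windows of the 10 genes spanned 203 to 296 kb and those of all genes a median of 215 kb, and per 100 kb the members had a mean of 0.956 sites against 0.342. No test was made of these counts, since windows of neighbouring genes share sites.

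**Figure D1:**
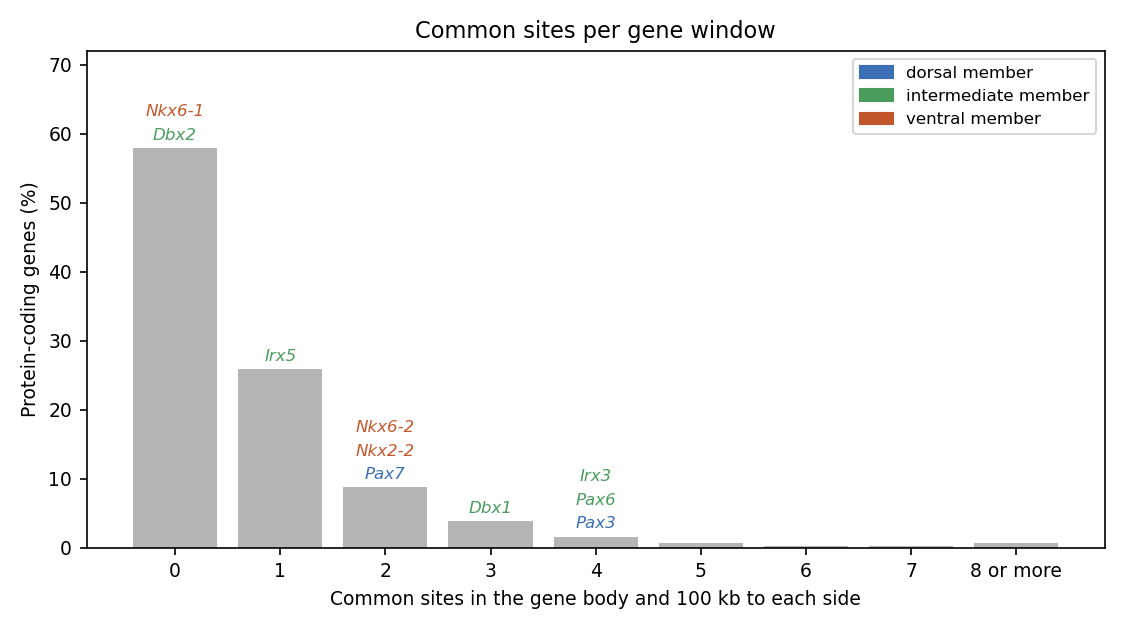
Percentage of the 22367 protein-coding genes (y axis) by the number of common sites in the gene body and 100 kb to each side (x axis), with each of the 10 genes named above its bar and coloured by domain. Dbx2 and Nkx6-1 stand with the genes without a site, and Pax3, Pax6 and Irx3 stand at 4 sites, which 3.63% of all genes reach or pass.

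Every gene had a peak of replicate 1 and of replicate 3 in its window, and 8 had a peak of replicate 2. Such a peak was present for 81.7%, 94.7% and 54.2% of all genes in replicates 1, 3 and 2. A single peak of replicates 1 or 3 in a window of this size was thus common and sets no gene apart. When overlapping peaks were merged, the windows contained 79 regions. All replicates had a peak in 21 of these, a pair of replicates in 10 and a single replicate in 48. Of the 46 peaks of replicate 1 in the windows, 21 held a common site, or 45.7% (95% Wilson confidence interval 32.2 to 59.8%), against 29.0% of the whole list. In replicate 2 the share was 22 of 25 peaks, or 88.0% (70.04 to 95.8%), against 67.0%. In replicate 3 it was 21 of 62 peaks, or 33.9% (23.3 to 46.3%), against 13.3%. These are the same sites counted in each list, so that the shares are not separate observations, and the intervals treat peaks as independent and cover counting error only.

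**Figure D2:**
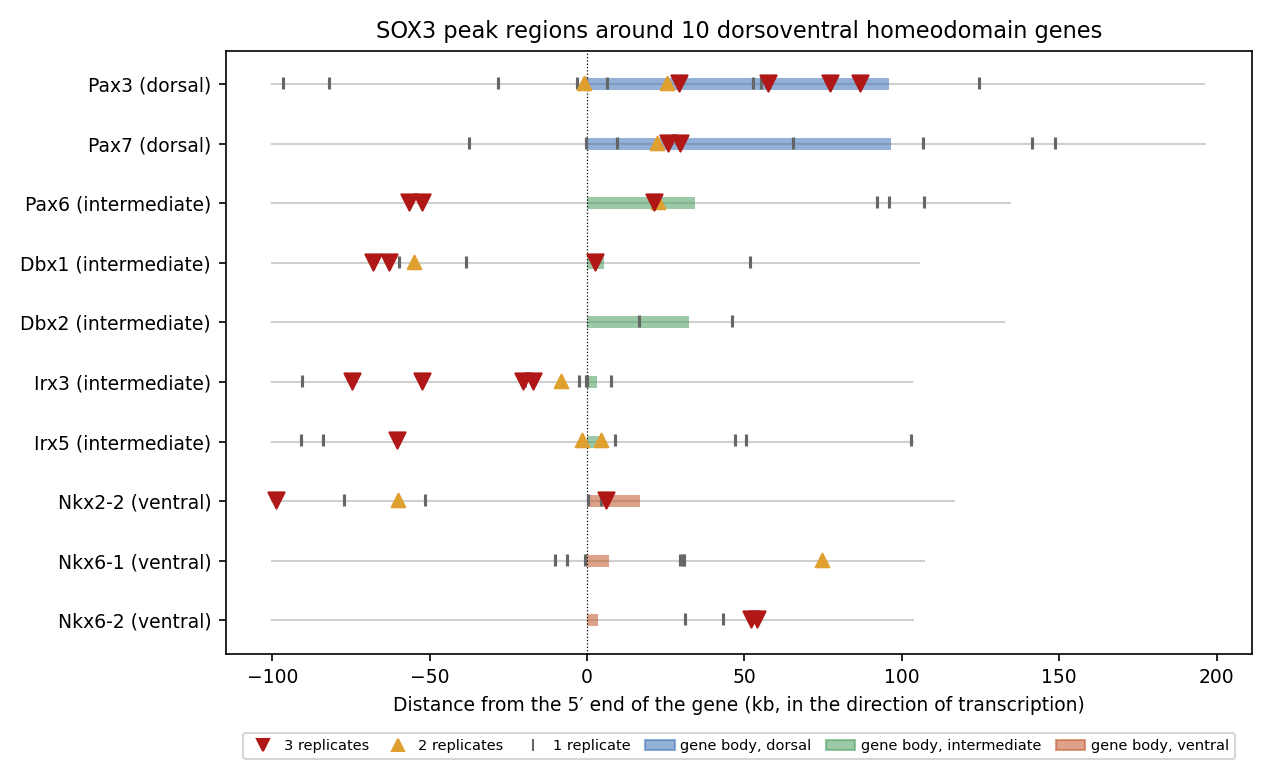
Merged peak regions around each of the 10 genes (rows), placed by their distance from the 5′ end of the gene body in kb, in the direction of transcription (x axis); bars are gene bodies, lines the windows, and symbols the number of replicates with a peak. Regions of 3 replicates lie inside Pax3 and Pax7, mostly upstream of Irx3, Irx5, Pax6 and Dbx1, and downstream of Nkx6-2, with none for Dbx2 and Nkx6-1.

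Pax3, a paired-box factor of dorsal progenitors and of the neural crest (ENSMUSG00000004872, chromosome 1 from 78097842 to 78193709, minus strand), had 4 common sites, all in its own introns. In the longest coding transcript, 2 sites lay in intron 4, at 28.7 and 57.3 kb downstream of the start, and 2 in intron 7, at 76.8 and 86.3 kb. The strongest, from 78135899 to 78136375 in intron 4, scored 902 in replicate 1, 652 in replicate 2 and 1150 in replicate 3, at ranks 202, 127 and 151 of the lists. It was thus near the top of every list, at the 98.9th, 98.4th and 99.6th percentiles. The other site in intron 4, from 78164442 to 78164908, was at the 95.9th, 86.8th and 97.04th percentiles in replicates 1, 2 and 3. In intron 7, the site from 78116479 to 78116844 was at the 94.5th, 92.5th and 98.4th percentiles. The site from 78106890 to 78107287 in the same intron was at the 91.5th, 87.4th and 98.2nd percentiles. All 4 sites were therefore in the upper part of each list. At the promoter of Pax3 no region reached 3 replicates. A region centred 1039.5 bp upstream of the start held peaks of replicates 1 and 3, at the 82.03rd and 83.3rd percentiles, and another 382.5 bp upstream held a peak of replicate 3 alone.

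Pax7, the paralog of Pax3 with a similar dorsal domain (ENSMUSG00000028736, chromosome 4 from 139292977 to 139389445, minus strand), had 2 common sites, both in intron 4 at 25.3 and 28.8 kb downstream of the start and 3499 bp apart. The site from 139359963 to 139360209 was at the 86.4th percentile in replicate 1, the 62.3rd in replicate 2 and the 89.3rd in replicate 3. The other, from 139363518 to 139363652, was at the 75.1st, 10.4th and 54.6th percentiles. In each replicate both sites of Pax7 ranked below all 4 sites of Pax3. Another region in the same intron, 21.8 kb from the start, held peaks of replicates 1 and 3, and a peak of replicate 1 alone lay 271 bp upstream of the start, with a score of 52.6 near the lowest of the list.

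Pax6, a paired-box factor that is also required in the forebrain and eye (ENSMUSG00000027168, chromosome 2 from 105509053 to 105543317, plus strand), had 4 common sites in a pair of places. Far upstream, sites from 105452164 to 105452684 and from 105456591 to 105456908 lay 56.6 and 52.3 kb from the nearest annotated start, within the non-coding gene Pax6os1. The first of them was at the 91.2nd, 93.96th and 98.6th percentiles in replicates 1, 2 and 3. The second was at the 95.6th, 91.7th and 97.9th percentiles. Both thus ranked above 90% of the peaks in every list. Within the gene, sites from 105530106 to 105530354 and from 105530398 to 105530537 lay 618.5 and 856 bp downstream of an internal start, in intron 7 of the longest coding transcript. They were covered by 1 peak of replicate 1, at the 96.3rd percentile, and 1 of replicate 3, at the 95.3rd, and were set apart by separate peaks of replicate 2 at the 65.4th and 6.65th percentiles. A further region of replicates 1 and 3 lay 1033.5 bp upstream of an internal start. Pax6 has 29 annotated starts, so that a place near one of them is easily reached. The introns of the neighbouring gene Elp4 are known to hold long-range enhancers of Pax6. Within the window they held 3 peaks, each of replicate 3 alone, at the 33.8th, 21.9th and 31.2nd percentiles.

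Dbx1, a homeodomain factor of the progenitors of V0 interneurons (ENSMUSG00000030507, chromosome 7 from 56886869 to 56892219, minus strand), had 3 common sites. The site inside the gene, from 56889745 to 56889913 in intron 2, was 1 of the weakest of the 22, at rank 13639 in replicate 1, 7718 in replicate 2 and 12592 in replicate 3. The paper gives its peak in this intron the highest conservation score of all peaks. It also lists Dbx1 among the genes with altered expression in Sox3 null NP cells. A pair of sites further upstream ranked higher than the site in intron 2. The site from 56955074 to 56955391, 63.01 kb upstream of the start, was at the 93.9th, 78.1st and 94.9th percentiles in replicates 1, 2 and 3. The site from 56960155 to 56960318, 68.02 kb upstream, was at the 66.1st, 10.8th and 84.8th percentiles. Both of these intergenic sites were nearer to a start of Htatip2 than to Dbx1, at distances of 59243 and 54239 bp. A region of replicates 2 and 3, 55.1 kb upstream, was mostly multi-copy, with 91.7% and 82.3% of its 50-base sequences in more than 1 place of the genome.

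Dbx2, expressed in a wider domain around that of Dbx1 (ENSMUSG00000045608, chromosome 15 from 95453994 to 95486391, minus strand), had 1 peak of replicate 1, none of replicate 2 and 1 of replicate 3 in its window, and these did not overlap. The peak of replicate 1, from 95469871 to 95470032 in intron 2, scored 52.6, at the 8.25th percentile. The peak of replicate 3, from 95440075 to 95440329 and 46.2 kb downstream of the start, scored 63.01, at the 48.7th percentile. No site was found within 200 kb either, and leaving out any 1 replicate gave none. The paper names Dbx2 among genes with a SOX3 peak at a regulatory motif that responds to SOXB1 factors. Its text gives no position for that motif, and whether it matches a peak named here was not tested.

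Irx3, an Iroquois factor excluded from the most ventral progenitors (ENSMUSG00000031734, chromosome 8 from 94322428 to 94325553, minus strand), had 4 common sites, all intergenic, upstream of the gene and nearest to its own start. They lay 17.2, 20.1, 52.4 and 74.8 kb upstream. The site from 94345508 to 94345857 was at the 85.8th, 76.8th and 95.9th percentiles in replicates 1, 2 and 3. The site from 94377797 to 94378079 was similar, at the 92.4th, 76.2nd and 96.3rd percentiles. The other two, from 94342649 to 94342827 and from 94400238 to 94400454, were less even among replicates. The first of these was at the 87.4th, 28.2nd and 62.8th percentiles, and the second at the 44.9th, 74.5th and 93.8th. At the start of Irx3, 1 peak of replicate 1 and 1 of replicate 3 did not overlap, and they were at the 17.6th and 20.6th percentiles.

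Irx5, which lies in the same Iroquois cluster (ENSMUSG00000031737, chromosome 8 from 94881695 to 94885351, plus strand), had 1 common site, and it was among the strongest; without replicate 2 the gene had 3 sites. The site from 94821002 to 94821413 scored 1046 in replicate 1, 584 in replicate 2 and 1249 in replicate 3, at ranks 150, 155 and 121. It lay 60.5 kb upstream of Irx5 and 58811 bp from a start of 4933436C20Rik, in the intergenic sequence between Irx3 and Irx5. Near the gene itself, a region 1578.5 bp upstream of the start and another 4340.5 bp downstream of it held peaks of replicates 1 and 3. In replicate 3 these were at the 87.1st and 90.5th percentiles, and in replicate 1 at the 19.5th and 73.5th.

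Nkx2-2, an NK factor of the most ventral neuronal progenitors (ENSMUSG00000027434, chromosome 2 from 147003282 to 147019979, minus strand), had 2 common sites. The first, from 147013954 to 147014191, lay inside the annotated gene, 1935 bp upstream of 1 of its 4 annotated starts, and also within the non-coding genes Nkx2-2as and 6430503K07Rik. It was at the 87.5th, 42.6th and 90.7th percentiles in replicates 1, 2 and 3. The second, from 147118738 to 147119035, was at the 75.7th, 76.7th and 96.1st percentiles. It lay 98.9 kb upstream, just inside the window, and was nearer to a start of Pax1, at 68774 bp, so that its place among the sites of Nkx2-2 rests on the width of the window. The nearest site outside any of the windows was 103.7 kb beyond Dbx1, at the 87.2nd, 75.5th and 93.5th percentiles.

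Nkx6-1, a ventral factor needed for motor neuron and V2 progenitors (ENSMUSG00000035187, chromosome 5 from 102087158 to 102094245, minus strand), had no common site and no peak of replicate 2 in its window; without replicate 2 it had 1 site. A region from 102019566 to 102019863, 74.5 kb downstream of the start, held peaks of replicates 1 and 3, at the 75.9th and 64.3rd percentiles. Of the other 6 regions, each with 1 replicate, 4 held a peak that was mostly multi-copy. A peak of replicate 3 alone, 692 bp upstream of the start, was at the 25.4th percentile. Further away the picture was different. In a window of 200 kb, 4 common sites were found, 127, 141 and 144 kb downstream and 160 kb upstream of the start. The site from 101953080 to 101953445 was the highest of them, at the 95.6th, 93.5th and 98.3rd percentiles, and the 3 downstream sites were nearest to Nkx6-1.

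Nkx6-2, the paralog of Nkx6-1 (ENSMUSG00000041309, chromosome 7 from 146765276 to 146768696, minus strand), had the common site with the highest lowest percentile of the 22. The site from 146714534 to 146715056 scored 1423 in replicate 1, 662 in replicate 2 and 1243 in replicate 3, at ranks 77, 123 and 123. A second site from 146716444 to 146716921, with its middle 1887.5 bp away, scored 783, 571 and 1035, at ranks 270, 170 and 181. Their lowest percentiles over the replicates were 98.5 and 97.9, so that both stood near the top of every list. They lay 53.9 and 52.01 kb downstream of Nkx6-2, in intron 8 of the longest coding transcript of Inpp5a, which encodes an inositol phosphatase. A start of Inpp5a was much closer, at 5038.5 and 6926 bp. By the rule of the nearest start Nkx6-2 had no site, and neither had Irx5.

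**Figure D3:**
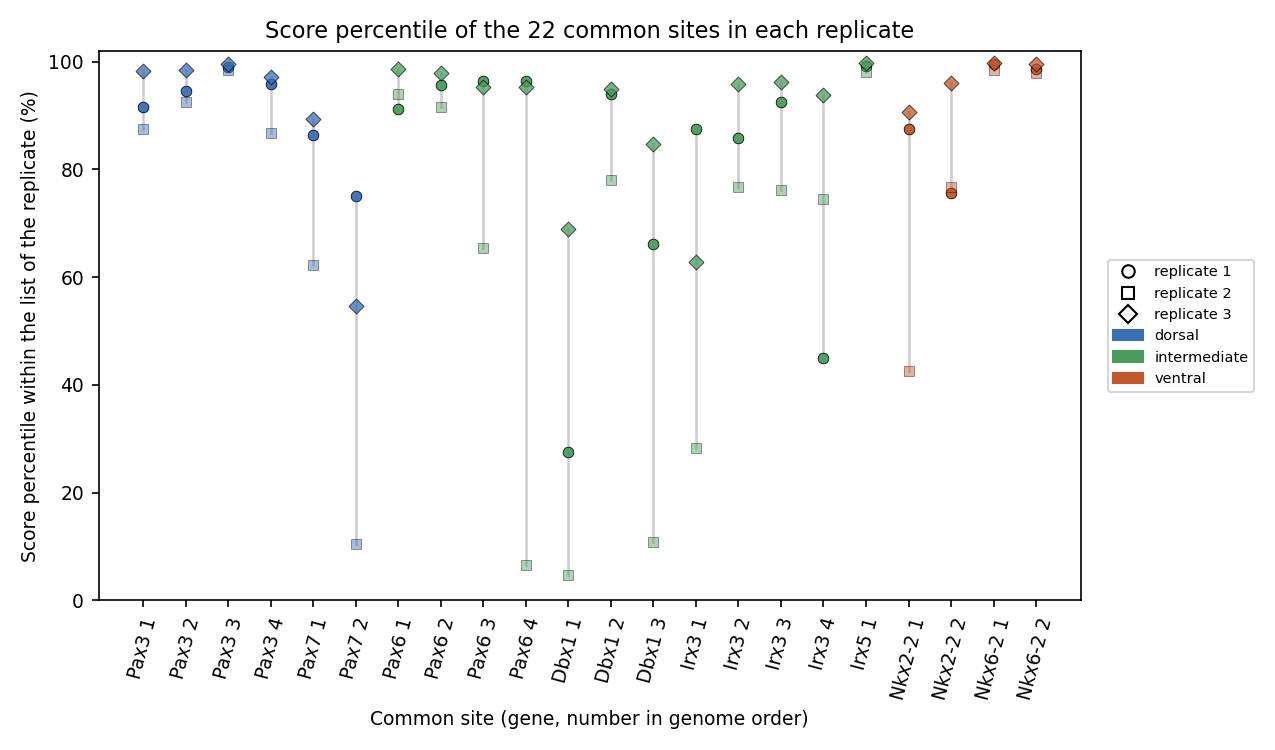
Score percentile within its own list (y axis, %) for each of the 22 common sites (x axis, by gene and in genome order) in replicates 1 (circles), 2 (squares) and 3 (diamonds), coloured by domain. The 3 replicates lie close together near the top for Pax3 site 3, Irx5 site 1 and both Nkx6-2 sites, and far apart for sites such as Dbx1 site 3, Pax7 site 2 and Pax6 site 4, where replicate 2 is low. The lists differ in length, and by rank Dbx1 site 3 was similar, at 6376, 7223 and 6175 in replicates 1, 2 and 3.

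By domain, the 2 dorsal genes had 6 common sites, the 5 intermediate genes 12 and the 3 ventral genes 4. Per 100 kb of window this came to 1.01, 1.11 and 0.638 sites. The counts depended on the window, with 6, 5 and 2 sites at 50 kb and 7, 14 and 8 at 200 kb, and the nearest start alone left 6, 9 and 1. Single genes ranged from 0 to 1.97 sites per 100 kb among the intermediate genes and from 0 to 0.983 among the ventral ones, so that the domains overlapped, and with 2 to 5 genes in each the difference was not tested. The median of the lowest percentile per site was 87.1 for dorsal, 70.8 for intermediate and 86.8 for ventral sites, over ranges from 10.4 to 98.4, from 4.68 to 98.1 and from 42.6 to 98.5. Of the ventral sites, 3 were nearest to another gene, Inpp5a or Pax1, and the 1 nearest to its own gene, in Nkx2-2, had 42.6. By place, all 6 dorsal sites were in introns of the gene itself, 9 of the 12 intermediate sites were intergenic and upstream, and 1 of the 4 ventral sites had its own gene as the nearest. The bodies of Pax3 and Pax7 span 95868 and 96469 bp, and those of the other genes from 3126 bp (Irx3) to 34265 bp (Pax6). The part of gene length in the place of the sites was not tested. Over all 22 sites, 16 were nearest to the member, 11 lay upstream and 11 downstream of its nearest start, and the median distance was 52.3 kb.

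A common site lay within 2000 bp of an annotated start at 2 of the 10 genes, Pax6 and Nkx2-2, against 4.8% of all protein-coding genes. In both genes this was an internal start and not the 5′ end of the gene. Across the members, the regions within 2000 bp of a start were found at 7 of the 10 genes, against 29.8% of all protein-coding genes, and were mostly of 1 or 2 replicates. Dbx1, Dbx2 and Nkx6-2 had none of any kind.

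The 22 sites were compared with all 5537 common sites. The paper, which also kept only peaks found in all 3 replicates, reports more common sites than this, so that the sets differ. Of the 22, 7 were at or above the 90th percentile in every replicate, or 31.8%, against 13.8% of all common sites. These were Pax3 sites 2 and 3, Pax6 sites 1 and 2, the Irx5 site and both Nkx6-2 sites. The lowest percentile per site had a median of 76.5, against 61.03 for all. Among the 22 it was the percentile in replicate 2, the shortest list, for all but Pax6 site 1, Irx3 site 4 and Nkx2-2 site 2. Another common site lay within 10 kb for 14 of the 22, or 63.6%, against 23.1%, with pairs at Pax3, Pax7, Irx3, Dbx1 and Nkx6-2 and a pair at each of the places in Pax6. The second Pax6 pair shares single peaks of replicates 1 and 3, so that these are neighbours only by the peaks of replicate 2. The sites were 135 to 523 bp wide with a median of 308 bp, against 260 bp for all. No site was mostly multi-copy, and at most 2.60% of the 50-base sequences of a peak, at the second Nkx2-2 site, occurred in more than 1 place. The GC content ranged from 37.8 to 58.7%, with a median of 48.2%.

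In the sequences, the SOX core was present in 20 of the 22 sites, or 90.9% (95% Wilson confidence interval 72.2 to 97.5%). Flanking windows of the same width, 2000 bp away to each side, held it in 63.6% (28 of 44), and all common sites held it in 74.4%. The sites without it were Pax3 site 1 and Pax6 site 4, and Pax3 site 1 held both the A form and the G form. Since the member sites were wider than most, the search was repeated in 200 bp around the middle of each. There the SOX core was in 21 of 22 windows (95.5%), against 43.2% of the flanking windows and 72.8% of all common sites. The member sites also ranked higher in the lists than all common sites did. Neither this word nor those below were compared with common sites of matched score.

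The G form, GACAAA or GACAAT, was present in 14 of the 22 sites, or 63.6% (42.95 to 80.3%), against 29.5% of the flanking windows and 38.5% of all common sites. In windows of 200 bp the shares were 59.1% (38.7 to 76.7%), 15.9% and 33.9%. The A form, AACAAA or AACAAT, was present in 11 sites, or 50% (30.7 to 69.3%), against 52.3% of the flanking windows and 53.02% of all common sites. In windows of 200 bp its shares were 40.9%, 27.3% and 48.5%, and the interval of the first, 23.3 to 61.3%, held both of the others. By domain, the A form was in 5 of the 6 dorsal, 6 of the 12 intermediate and 0 of the 4 ventral sites. The G form was in 5 of 6, 5 of 12 and 4 of 4. The counts by domain are small and were not tested.

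**Figure D4:**
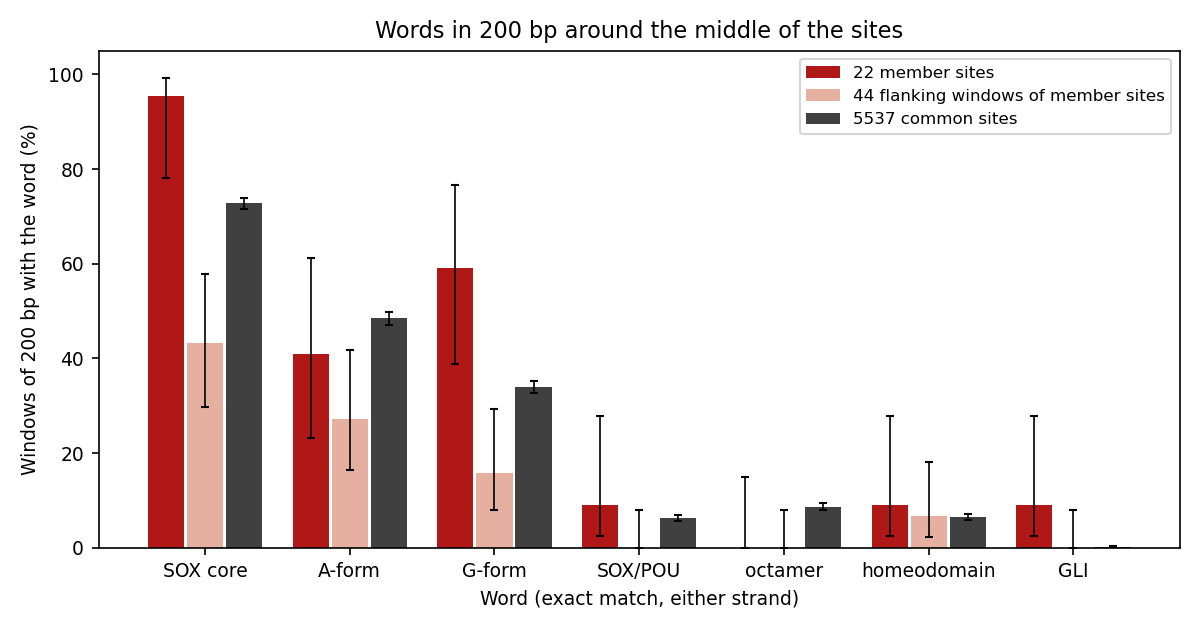
Percentage of windows of 200 bp that hold each word on either strand (y axis) in the 22 member sites, their 44 flanking windows and 5537 common sites, with 95% Wilson confidence intervals; A-form and G-form are the SOX words that begin with A and with G. The SOX core stands at 95.5% of the member sites against 72.8% of all common sites, and the G form at 59.1% against 33.9%.

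The composite SOX/POU word has a SOX part that is looser than the SOX words above, so that its marked letters need not hold one of them. It was present in 2 sites, Pax3 site 1 and Pax6 site 2, or 9.09% (2.53 to 27.8%), against 6.47% of all common sites and none of the 44 flanking windows. The POU octamer, ATGCAAAT or ATGCTAAT, was in none of the 22 sites, with a Wilson interval up to 14.9%, against 4.55% of the flanking windows and 9.84% of all common sites. The homeodomain word TAATTA was present in 3 sites, Pax3 site 2, Pax6 site 1 and Nkx2-2 site 2, or 13.6%, against 4.55% of the flanking windows and 9.12% of all common sites. In windows of 200 bp its shares were closer, at 9.09%, 6.82% and 6.56%. The GLI word GACCACCCA, the core bound by the effectors of SHH signalling, was present in 2 sites, the Nkx2-2 site in the gene and the Irx5 site. It was in 18 of the 5536 common sites that could be searched, or 0.325%, and in 1 of the 44 flanking windows. An exact word is stricter than a motif with weights, and a match describes the sequence and not binding by that factor.

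The other transcription factors of dorsoventral patterning were counted in the same way. Of 15, 11 had a common site in their window (73.3%, against 42.1% of all genes), with a median of 1 site. Of those named here, the dorsal factors Msx1, Gsx1, Lmx1a and Olig3 had 1 each and Gsx2 had 2. Prdm13 and Sp8 had 2 each. Among the ventral factors, Olig2, the determinant of motor neuron progenitors, had 3 sites, none of them nearest to Olig2, Nkx2-9 had 2 and Foxa2, the floor plate factor, had 1. Msx2, Ptf1a, Atoh1 and Prdm12 had none. The strongest was near Olig3, a factor of the most dorsal progenitors, with 98.7 as its lowest percentile.

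Paralogs of the 10 genes that are not among them were counted as well. Of 16, 8 had a common site (50%, against the same 42.1%), with a median of 0.5. In the Iroquois family Irx1 and Irx2 had none, Irx4 had 1 and Irx6, which lies near Irx5, had 2. In the Pax family Pax2 had 4, Pax1, Pax8 and Pax9 had 1 each, and Pax4 and Pax5 had none. The site of Pax1 was the second site of Nkx2-2. In the NK family Nkx2-1, the ventral forebrain factor, had 3 sites with 99.2 as the highest lowest percentile, and Nkx2-3 had 1, while Nkx2-4, Nkx2-5, Nkx2-6 and Nkx6-3 had none. The difference between the lists was not tested.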

How the data were processed

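The 3 deposited peak lists, 1 per replicate, are MACS output on mm9. They rest on Bowtie alignments (1.0.0 per the labels) and on a comparison with input that kept p-values up to 1e-05. The deposited score of a peak is 10 times the negative log10 of that p-value, and the lowest score in each list was 50. Reads and input were not analysed here, and depth is unknown. Genes and starts came from GENCODE vM1 on NCBIM37, the assembly of mm9, with distances to the nearest annotated start of the member. A site was assigned to every member whose window it overlapped by 1 bp. Stretches wider than 300 bases were shortened for printing, and words were searched exactly on both strands. The named sites were all common sites of the members, and the sequences those with the highest lowest percentile of each gene, plus 1 further site each of Dbx1 and Nkx2-2 added after their values were seen. The members, the lists of other genes and the words were chosen with earlier results of these data known, and 1 gene of these lists is not reported by name. The procedure was tested on simulated data. Python 3.11.15, numpy 2.4.6, pandas 2.3.3, scipy 1.17.1, pysam 0.24.0 and numba 0.67.0 were used.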

Additional observations from a re-analysis of the deposited data

How the results depend on the processing

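The alternatives were windows of 50 and 200 kb, the nearest start alone, only peaks at a p-value of at most 1e-10, lists of equal length, 50% reciprocal overlap, midpoints within 300 bp, no multi-copy peaks, and each replicate left out. With windows of 50 kb, the common sites numbered 13 in all, 5 intermediate and 2 ventral, and the median lowest percentile was 65.4. With windows of 200 kb the ventral sites numbered 8, because 4 near Nkx6-1 entered. By the nearest start alone 1 ventral site was left. At the stricter p-value the intermediate sites numbered 7 and the median lowest percentile was 87.4, by construction. The other totals over the genes and the A-form share stayed within 1.5 times of their value. The shares of the other words, of the sites in the top of each list and of neighbouring sites were not recomputed. Single genes moved further. With windows of 50 kb Irx5 lost its only site, Dbx1, Nkx2-2 and Nkx6-2 had 1 each and Pax6 and Irx3 2 each. At 200 kb Irx5 had 2 sites, Pax7 3 and Dbx1 4. By the nearest start Dbx1 and Nkx2-2 had 1 each and Irx5 and Nkx6-2 had 0. At the stricter p-value Dbx1 had 1 site, Irx3 2, Pax7 1 and Nkx2-2 1. With lists of equal length Irx3 had 2 and Pax7 1, and with reciprocal overlap Pax6 had 2. Leaving out a replicate gave 22 to 29 sites, 4 to 6 of them ventral, and 8 to 9 genes with one, the ninth being Nkx6-1 without replicate 2. Irx5 then had 3 sites. No paired analysis was possible because the results come from no test between groups. Depth is unknown, and its part in which sites reach 3 replicates was not tested.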

Other observations

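The distance of the regions from the starts of the 10 genes is given here by which replicates held a peak, as a description. The 21 regions of 3 replicates lay a median of 52.4 kb from the nearest start of the member, while the 7 regions with peaks of replicates 1 and 3 and none of replicate 2 lay a median of 4.34 kb away. The latter were spread from 1.03 to 74.5 kb, and the nearest was measured to an internal start of Pax6. These 7 were at Pax3, Pax7, Pax6, Irx5 (2 regions), Nkx2-2 and Nkx6-1. Their peaks had a median percentile of 73.5 in replicate 1 and 87.1 in replicate 3. The 3 regions of replicates 2 and 3 lay a median of 25.04 kb away. The 31 regions of replicate 3 alone lay a median of 54.9 kb away and had a median percentile of 35.5, and the 17 of replicate 1 alone lay 19.8 kb away. Over the whole lists, where the distance was taken to the nearest start of any protein-coding gene, the medians were 23.7 kb for regions of 3 replicates, 18.3 kb for those of replicates 1 and 3, and 27.6 kb for those of replicates 2 and 3. They were 35.1 kb for replicate 3 alone and 13.8 kb for replicate 1 alone. Whether the shorter list of replicate 2 bears on this was not tested.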
